A study of Homo sapiens with 8 samples.

Results

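The genes described here are 33 members of the hypoxia-inducible factor (HIF) pathway, taken by symbol: the HIF subunits, the enzymes and ligase component that sense oxygen and limit HIF, and HIF target genes that do not act in glycolysis. Each symbol was matched through GENCODE 29 to an Ensembl identifier of the deposited count table, and all 33 were found among its 60609 identifiers. RNA was sequenced in GNAS R201C/+ cells, a CRISPR-Cas9 derivative of HCT116 with the R201C change on 1 allele of GNAS, and in parental HCT116 cells with wild-type GNAS, labelled Ctrl. HCT116 is an established human colon cancer line. Each group had 4 libraries, and both groups shared 1 medium with serum. No source used here states an oxygen level, whether the edited line is 1 clone, or whether the replicates were separate cultures, so the p-values measure the spread between these libraries.

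HIF is a pair of proteins, an oxygen-labile alpha subunit (HIF1A or EPAS1) and a stable beta subunit (ARNT or ARNT2). With oxygen present, EGLN enzymes hydroxylate the alpha subunit, VHL binds it and it is degraded, so that most of the control acts on the protein and not on its mRNA. When oxygen falls, the pair binds DNA at a short hypoxia response element and induces genes for glucose uptake, blood vessel growth, mitophagy and collagen modification. GNAS encodes the G protein subunit that activates adenylyl cyclase, and R201C is an activating change. The comparison asks whether the rise of the glucose transporter gene SLC2A1, a known HIF target, came with changes in the rest of this pathway.

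Library totals ran from 45796887 to 48768360 counts in GNAS R201C/+ cells and from 42584988 to 50986733 counts in parental cells. Levels are given in CPM, the usual depth-corrected count, over TMM-scaled library totals, and levels of different genes are compared as CPM per kb of annotated exon. Of 12 colon epithelial markers 7 were well enough counted to be tested, with KRT8 and EPCAM abundant, while KRT20 and CDX1 were listed at 0. Of those 7, EPCAM, CDH1, KRT8 and KRT18 rose, KRT19 did not pass, and the intestinal transcription factor genes CDX2 and HNF4A fell. HNF4A was at 0.796 ± 0.0882 CPM in GNAS R201C/+ cells and 2.83 ± 0.234 CPM in parental cells (SD, n = 4 each; log2 change -1.83, edgeR adjusted p = 2.02e-15). The list summed to 4401 to 4482 CPM in GNAS R201C/+ libraries and 3856 to 4011 CPM in parental libraries, mostly keratin reads, and the part of these changes in the results was not tested. Of 10 fibroblast, 10 endothelial and 10 leukocyte markers, 7, 8 and 9 had at most 20 reads in any library, and the summed levels of each of these 3 lists overlapped between the groups. The fibroblast sum was mostly COL1A1, and in that list ACTA2 was called higher, at 5.31 ± 0.444 CPM in GNAS R201C/+ cells and 4.26 ± 0.622 CPM in parental cells (edgeR adjusted p = 0.00311). GNAS itself was at 711 ± 13.2 CPM in GNAS R201C/+ cells and 677 ± 16.9 CPM in parental cells (SD, n = 4 each). It was called higher, by 0.07 on the log2 scale (edgeR adjusted p = 0.00412), with overlapping groups. Counts per gene do not show the edited base. In bulk RNA, a change in the share of cells that express a gene and a change in its RNA per cell cannot be told apart.

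SLC2A1 was at 532, 553, 528 and 515 CPM in GNAS R201C/+ libraries, against 240, 235, 234 and 239 CPM in parental libraries. It rose 2.25-fold, or by 1.17 ± 0.02 (SE) on the log2 scale (edgeR adjusted p = 3.19e-36), and none of the 29 HIF pathway genes with enough reads to be tested changed by as much. Of these 29, 16 rose, 7 fell and 6 did not pass an adjusted p of 0.05 (edgeR quasi-likelihood test, adjusted over all genes). Over all 15751 tested genes, 48.1% passed, 24.1% higher and 24.0% lower. The same test is passed more often by abundant genes: among tested genes with a mean of at least 10 CPM, 60.5% passed, 28.8% higher and 31.7% lower, and of the 23 HIF pathway genes at that level 14 rose and 4 fell. In 19 of the 29 tested genes the groups did not overlap, 13 higher and 6 lower in GNAS R201C/+ cells, against 41.6% of all tested genes. Most changes were small. The median size was 1.11-fold, against 1.09-fold over all tested genes, and 13 of the 23 changes were under 1.2-fold. A change of at least 1.5-fold that also passed the test was seen in 3 members, BHLHE40, DDIT4 and ARNT2, against 5.00% of all tested genes.

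**Figure D1:**
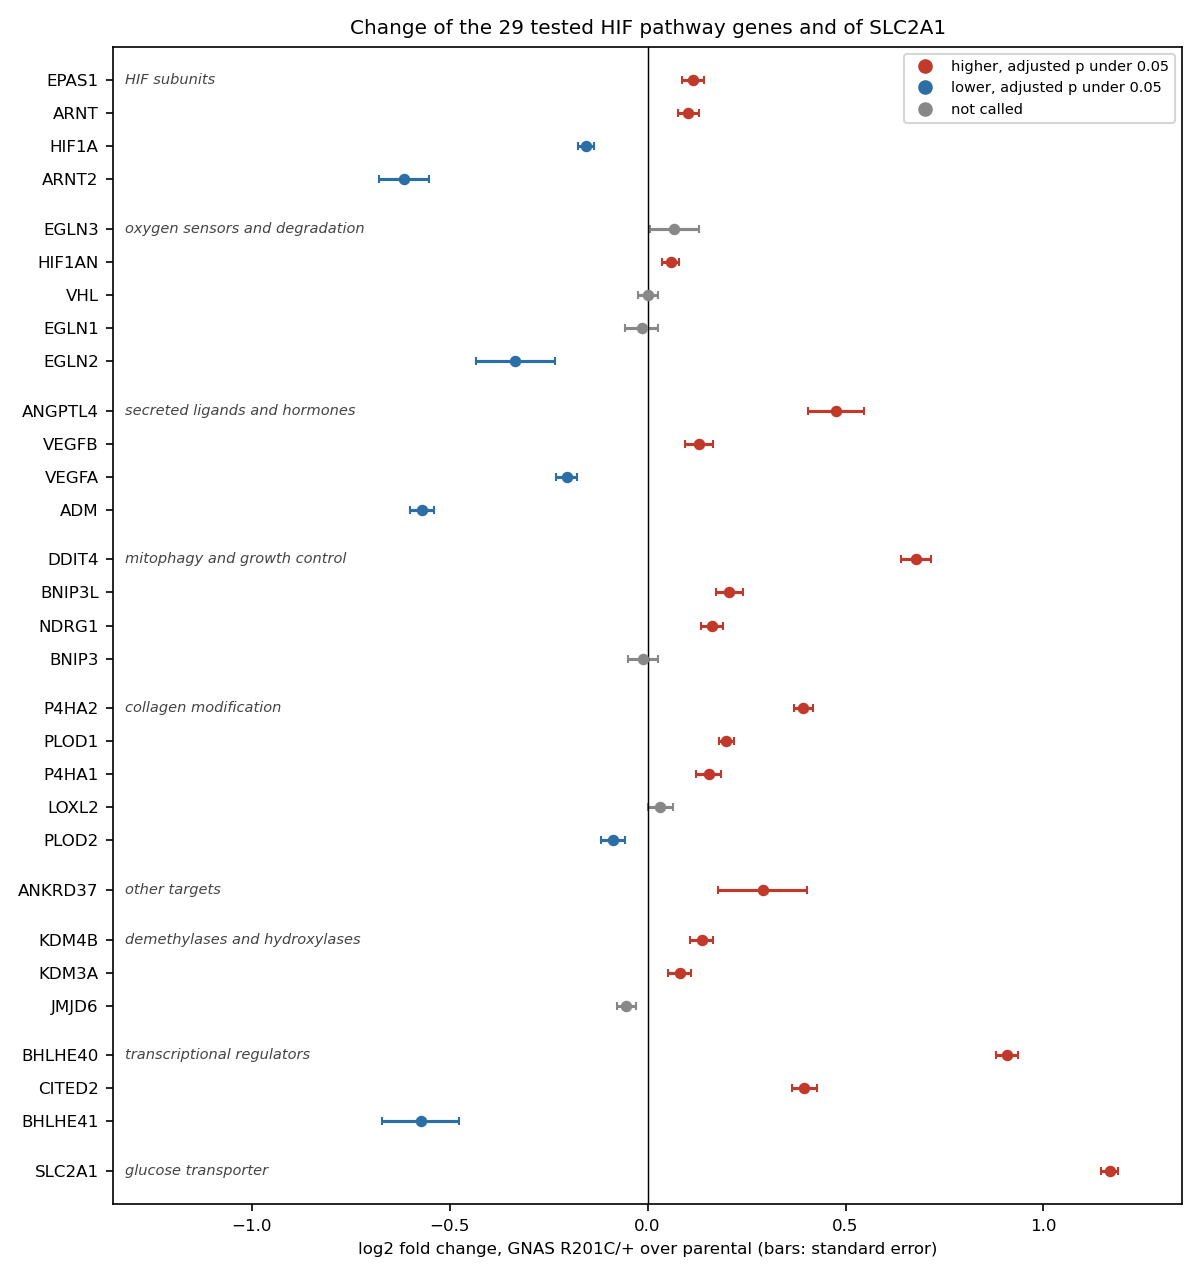
Log2 fold change, GNAS R201C/+ over parental, of the 29 tested HIF pathway genes, by role, and of SLC2A1; points are edgeR estimates from 4 libraries per group, bars are standard errors, and colour gives the call. BHLHE40 at 0.91 and DDIT4 at 0.68 rose the most, ARNT2 at -0.61 fell the most, and every role with at least 4 tested genes holds members that did not rise.

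**Figure D2:**
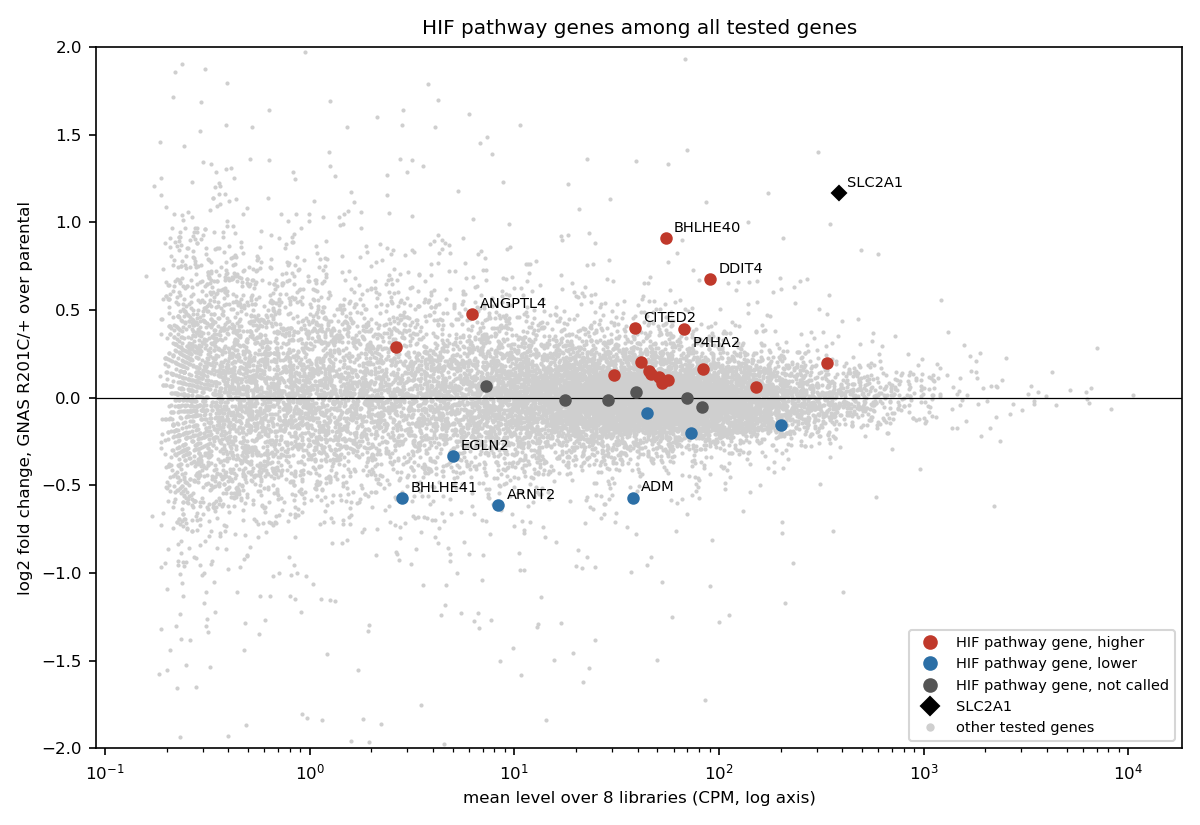
Log2 fold change, GNAS R201C/+ over parental, against the mean level over 8 libraries in CPM (log axis) for all tested genes, with the HIF pathway genes coloured by call and SLC2A1 as a diamond. The axis ends at a log2 change of 2 in size, which leaves out 54 tested genes; BHLHE40, DDIT4 and ADM lie at the edge of the cloud of genes of like level, and most of the others lie inside it.

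The sequences below are the 250 bases before the RefSeq start sites of the strongly changed members BHLHE40, DDIT4, BHLHE41 and ADM, a pair that rose and a pair that fell, on GRCh38.p14. They are shown because the HIF binding core can be read in each of them. Capitals mark ACGTG or GCGTG, the core letters of the hypoxia response element, on either strand. A CACGTG holds ACGTG on both strands and counts as 2 matches, and it is also the E-box that clock factors and the BHLHE40 and BHLHE41 proteins bind.
BHLHE40 (chr3:4979187-4979436, plus strand): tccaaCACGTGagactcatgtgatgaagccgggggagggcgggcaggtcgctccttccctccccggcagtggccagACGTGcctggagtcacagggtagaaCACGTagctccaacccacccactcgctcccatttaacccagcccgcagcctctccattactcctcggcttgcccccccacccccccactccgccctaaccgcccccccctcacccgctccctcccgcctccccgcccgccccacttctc
DDIT4 (chr10:72273674-72273923, plus strand): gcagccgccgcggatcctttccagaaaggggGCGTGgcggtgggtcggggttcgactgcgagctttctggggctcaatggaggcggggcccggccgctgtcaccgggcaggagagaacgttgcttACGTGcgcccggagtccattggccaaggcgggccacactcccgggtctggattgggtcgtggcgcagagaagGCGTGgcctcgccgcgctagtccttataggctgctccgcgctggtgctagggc
BHLHE41 (chr12:26125038-26125287, minus strand): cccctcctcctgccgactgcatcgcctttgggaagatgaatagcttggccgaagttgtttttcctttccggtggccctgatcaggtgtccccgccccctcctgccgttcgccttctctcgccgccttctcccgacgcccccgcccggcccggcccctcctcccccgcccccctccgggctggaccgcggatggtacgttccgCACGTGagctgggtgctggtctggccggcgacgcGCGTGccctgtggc
ADM (chr11:10304823-10305072, plus strand): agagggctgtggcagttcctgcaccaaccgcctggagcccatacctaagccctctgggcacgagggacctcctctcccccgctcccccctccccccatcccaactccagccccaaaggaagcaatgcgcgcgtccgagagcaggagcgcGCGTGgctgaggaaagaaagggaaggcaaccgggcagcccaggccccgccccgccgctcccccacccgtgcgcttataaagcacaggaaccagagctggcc
BHLHE40 held 4 matches in 3 places, the farthest beginning 245 bases before the start. DDIT4 and BHLHE41 held 3 each, and ADM held 1, at 101 bases before the start.

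The same letters were looked for in all windows of the RefSeq table, each 300 bases long and running to 50 bases after the start. The table held 32 windows for 25 of the 33 genes, and none for ARNT2, the member that fell the most. ACGTG or GCGTG stood in 25 of these windows (78.1%), and in 48.4% of all 35116 windows. By direction of change it stood in 14 of the 17 windows of genes that rose, in 5 of the 7 windows of genes that fell and in 2 of the 3 windows of genes that did not pass. The window of BNIP3, which did not pass, held 6 matches, and that of P4HA2, which rose, held 0. TGACG, the core of the cAMP response element, stood in 5 of the 32 windows (15.6%) and in 24.6% of all windows, and the full palindrome TGACGTCA in 0 of the 32 and in 1.85% of all. TGACG and ACGTG can share bases, as in TGACGTG. A match is a run of letters and no measured binding site, and windows of 1 gene overlap. Most of the 33 genes were listed as HIF targets, so an excess of these letters was likely from the outset and is no result of these data. The windows compared were taken whether or not their genes were expressed here.

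The HIF subunit genes split, with 2 up and 2 down. HIF1A (ENSG00000100644.17, GRCh38 chromosome 14, 61695513 to 61748259, plus strand), the oxygen-labile subunit of the acute response, had 194, 187, 186 and 189 CPM in GNAS R201C/+ libraries, against 214, 213, 206 and 211 CPM in parental libraries. Every GNAS R201C/+ library lay below every parental one, and the log2 change was -0.16 ± 0.02 (SE; edgeR adjusted p = 3.03e-08). EPAS1, which encodes the other main alpha subunit (HIF-2 alpha), had 51.8, 51.9, 55.4 and 53.4 CPM in GNAS R201C/+ libraries, against 49.3, 49.3, 48.7 and 48.8 CPM in parental libraries. It rose by 0.12 on the log2 scale (edgeR adjusted p = 0.000712), without overlap. Per kb of exon HIF1A remained the more abundant of the alpha subunits: the ratio of HIF1A to EPAS1 was 4.77 to 5.32 in GNAS R201C/+ libraries and 5.99 to 6.14 in parental libraries.

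The beta subunit genes went opposite ways. ARNT, the general partner, averaged 58.3 ± 1.19 CPM in GNAS R201C/+ cells and 54.3 ± 1.32 CPM in parental cells (SD, n = 4 each), a log2 change of 0.10 (edgeR adjusted p = 0.00161). ARNT2 (ENSG00000172379.21, chromosome 15, 80404350 to 80597937, plus strand), a relative best known from neural tissue, had 6.53, 6.71, 6.35 and 6.83 CPM in GNAS R201C/+ libraries, against 11.5, 9.59, 9.42 and 9.85 CPM in parental libraries. The groups did not overlap, and the log2 change was -0.61 ± 0.06 (SE; edgeR adjusted p = 9.21e-11). Per kb of exon ARNT stood 10.0 to 11.05 times above ARNT2 in GNAS R201C/+ libraries and 5.45 to 6.82 times above it in parental libraries.

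Of the 5 genes that sense oxygen or limit HIF, 1 rose, 1 fell and 3 did not pass. VHL, the substrate receptor of the ubiquitin ligase that marks HIF for degradation, had 70.8, 68.9, 69.9 and 69.5 CPM in GNAS R201C/+ libraries, against 69.0, 71.0, 71.2 and 68.0 CPM in parental libraries. The groups lay over one another, and the 95% interval of the log2 difference from limma-voom was -0.05 to 0.05. EGLN1, the main HIF prolyl hydroxylase, averaged 17.6 ± 0.233 CPM in GNAS R201C/+ cells and 17.8 ± 0.894 CPM in parental cells (SD, n = 4 each), with an interval of -0.10 to 0.07. EGLN3, a hydroxylase whose own gene is induced by HIF, averaged 7.43 ± 0.220 CPM in GNAS R201C/+ cells and 7.08 ± 0.355 CPM in parental cells, with an interval of -0.06 to 0.19. EGLN1 and EGLN3 had edgeR adjusted p-values of 0.805 and 0.392, and the groups overlapped for both.

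HIF1AN, the asparaginyl hydroxylase that blocks the transactivation domain of HIF, rose by 0.06 on the log2 scale (edgeR adjusted p = 0.0215), with overlapping groups. That call ended without GNAS R201C/+ replicate 1 (adjusted p = 0.0827) and without parental replicate 3 or 4 (0.0720 and 0.0911). HIF1AN shares 325 exonic bases, 2.33% of its exonic length, with NDUFB8 on the opposite strand, which had 1194 to 1465 reads per library. EGLN2, the third prolyl hydroxylase, had 3.98, 5.39, 4.55 and 3.77 CPM in GNAS R201C/+ libraries, against 4.90, 6.50, 5.55 and 5.35 CPM in parental libraries. The groups overlapped and the log2 change was -0.33 (edgeR adjusted p = 0.00756). EGLN2 shares 2012 exonic bases, 30.6% of its exonic length, with the read-through gene RAB4B-EGLN2 on the same strand, which was listed at 0 in all 8 libraries, so its level is uncertain.

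**Figure D3:**
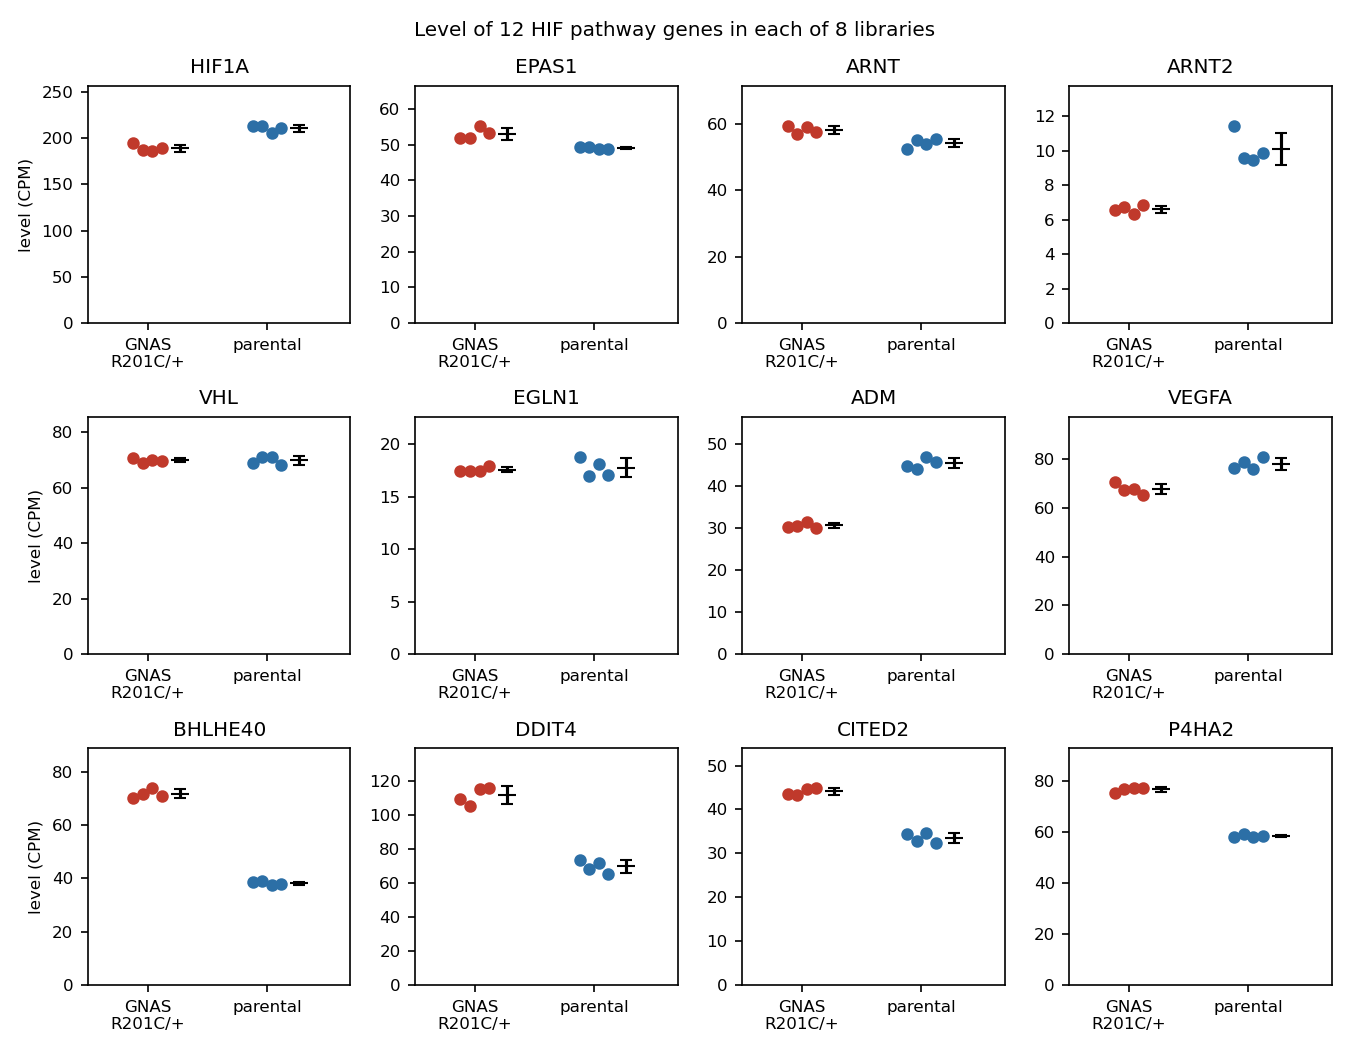
Level in CPM of 12 HIF pathway genes in each library, with GNAS R201C/+ left of parental; points are the 4 libraries of a group and the bar is the mean ± SD. The groups lie over one another for VHL and EGLN1 and are apart for the other 10 genes, with ADM lower and BHLHE40 and DDIT4 higher in GNAS R201C/+ cells by more than the spread of either group.

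Of the 24 target genes 20 were tested, and 13 rose, 4 fell and 3 did not pass. The 13 include VEGFB, which was listed with the targets but is not a classical HIF target. Over all tested genes 48.1% passed, 24.1% higher and 24.0% lower. Among those with a mean of at least 10 CPM, 60.5% passed, 28.8% higher and 31.7% lower. The counts by role that follow are to be read beside these shares. Of the 3 transcriptional regulators tested, 2 rose and 1 fell. BHLHE40 (ENSG00000134107.5, chromosome 3, 4979116 to 4985323, plus strand), a basic helix-loop-helix repressor of the clock that HIF induces, had 70.2, 71.8, 74.1 and 70.9 CPM in GNAS R201C/+ libraries, against 38.5, 38.9, 37.4 and 38.1 CPM in parental libraries. It rose 1.88-fold, a log2 change of 0.91 ± 0.03 (SE; edgeR adjusted p = 6.30e-28), and it was the member that passed a test against a 1.5-fold change. BHLHE41, its closest relative, had 2.18, 2.35, 2.12 and 2.44 CPM in GNAS R201C/+ libraries, against 3.29, 3.44, 3.30 and 3.52 CPM in parental libraries. It fell without overlap, by 0.57 on the log2 scale (edgeR adjusted p = 3.79e-06). The ratio of BHLHE40 to BHLHE41 per kb of exon was 29.9 to 36.1 in GNAS R201C/+ libraries and 11.1 to 12.1 in parental libraries, the widest gap among the related pairs compared.

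CITED2, which competes with HIF alpha subunits for their coactivators and so limits HIF output, had 43.5, 43.4, 44.7 and 45.0 CPM in GNAS R201C/+ libraries, against 34.3, 32.9, 34.7 and 32.3 CPM in parental libraries. It rose 1.32-fold, with no overlap (log2 change 0.40, standard error 0.03, edgeR adjusted p = 6.33e-14). RORA, a nuclear receptor of the clock, had 0 reads in each GNAS R201C/+ library and at most 1 in a parental library, and was not tested. In these libraries a count of 0 allows up to 3 reads, which is 0.0590 to 0.0704 CPM depending on the library, and this limit covers counting error alone.

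The secreted factors split, with 2 up and 2 down. ADM (ENSG00000148926.10, chromosome 11, 10304680 to 10307397, plus strand) encodes adrenomedullin, a vasodilator peptide and a standard marker of hypoxia. It had 30.3, 30.6, 31.5 and 30.0 CPM in GNAS R201C/+ libraries, against 44.8, 44.1, 47.0 and 45.8 CPM in parental libraries. Its level was 1.48-fold lower in GNAS R201C/+ cells, with no overlap (log2 change -0.57, standard error 0.03, edgeR adjusted p = 7.18e-19). VEGFA, the main angiogenic growth factor of the hypoxia response, had 70.5, 67.4, 67.8 and 65.1 CPM in GNAS R201C/+ libraries, against 76.5, 78.6, 75.8 and 81.0 CPM in parental libraries. It too fell without overlap, by 0.20 on the log2 scale (edgeR adjusted p = 2.71e-08).

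VEGFB, the relative of VEGFA that is not a classical HIF target, averaged 32.2 ± 1.36 CPM in GNAS R201C/+ cells and 29.4 ± 0.796 CPM in parental cells (SD, n = 4 each), a log2 change of 0.13 (edgeR adjusted p = 0.00196). The ratio of VEGFA to VEGFB per kb of exon was 0.209 to 0.246 in GNAS R201C/+ libraries and 0.270 to 0.307 in parental libraries. ANGPTL4, an inhibitor of lipoprotein lipase induced by HIF and by lipid-sensing receptors, had 7.67, 6.88, 6.71 and 7.59 CPM in GNAS R201C/+ libraries, against 5.41, 5.13, 4.69 and 5.49 CPM in parental libraries. It rose 1.39-fold, without overlap (edgeR adjusted p = 3.24e-07). STC1, a secreted hormone of calcium balance, had 0 or 1 read per library in both groups and was not tested.

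Among the genes of mitophagy and growth control, 3 rose and 1 did not pass. DDIT4 (ENSG00000168209.5, chromosome 10, 72273920 to 72276036, plus strand), a stress-induced inhibitor of the mTOR complex that HIF, p53 and other stress factors can induce, had 109, 105, 115 and 116 CPM in GNAS R201C/+ libraries, against 73.5, 68.1, 71.9 and 65.0 CPM in parental libraries. It rose 1.60-fold, with no overlap (log2 change 0.68, standard error 0.04, edgeR adjusted p = 1.09e-09). DDIT4 shares 847 exonic bases, 41.2% of its exonic length, with DDIT4-AS1 on the opposite strand, and reads of the pair may not be separable. DDIT4-AS1 had 3 to 7 reads per library. BNIP3L, a mitophagy receptor, averaged 44.5 ± 1.83 CPM in GNAS R201C/+ cells and 38.5 ± 1.95 CPM in parental cells (SD, n = 4 each), and rose by 0.21 on the log2 scale (edgeR adjusted p = 3.89e-06). The related gene BNIP3, a mitophagy receptor often used as a marker of hypoxia, did not pass: it averaged 28.7 ± 1.28 CPM in GNAS R201C/+ cells and 28.9 ± 1.41 CPM in parental cells, and the 95% interval of the log2 difference from limma-voom was -0.09 to 0.07. NDRG1, a stress-responsive gene of differentiation and a further hypoxia marker, averaged 88.3 ± 2.56 CPM in GNAS R201C/+ cells and 78.9 ± 3.85 CPM in parental cells and rose by 0.16 on the log2 scale (edgeR adjusted p = 1.29e-05).

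Of 6 genes for collagen modification 5 were tested, and 3 rose, 1 fell and 1 did not pass. P4HA2, a catalytic subunit of collagen prolyl hydroxylase, had 75.5, 77.0, 77.3 and 77.5 CPM in GNAS R201C/+ libraries, against 58.1, 59.2, 58.0 and 58.7 CPM in parental libraries. It rose 1.31-fold, and the gap between the groups was many times the spread within either (log2 change 0.39, standard error 0.02, edgeR adjusted p = 4.25e-17). P4HA1, the other main catalytic subunit, rose by 0.15 on the log2 scale (edgeR adjusted p = 0.000101), and its lowest GNAS R201C/+ library, at 46.1 CPM, lay just above the highest parental one, at 46.0 CPM. PLOD1, a lysyl hydroxylase of collagen, averaged 362 ± 4.21 CPM in GNAS R201C/+ cells and 315 ± 3.52 CPM in parental cells (SD, n = 4 each), a log2 change of 0.20 (edgeR adjusted p = 1.35e-11). PLOD2, the lysyl hydroxylase most often named as a HIF target, fell by 0.09 (edgeR adjusted p = 0.0166), and that call ended without GNAS R201C/+ replicate 3 (adjusted p = 0.0692) or parental replicate 4 (0.0935). The cross-linking enzyme gene LOXL2 did not pass, at 39.8 ± 1.15 CPM in GNAS R201C/+ cells and 38.9 ± 1.19 CPM in parental cells. LOXL2 shares 120 exonic bases, 2.10% of its exonic length, with ENTPD4 on the same strand, which had 4038 to 4751 reads per library. LOX, the founding member of that enzyme family, had at most 1 read in a GNAS R201C/+ library and at most 2 in a parental library, and was not tested.

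Of the 3 oxygenases that act on chromatin and its proteins, 2 rose and 1 did not pass. KDM4B, a histone lysine demethylase, averaged 48.9 ± 0.448 CPM in GNAS R201C/+ cells and 44.5 ± 1.53 CPM in parental cells (SD, n = 4 each), without overlap, a log2 change of 0.14 (edgeR adjusted p = 0.000143). KDM3A, another histone demethylase induced by HIF, rose by 0.08 (edgeR adjusted p = 0.0180) with overlapping groups. The KDM3A call ended without GNAS R201C/+ replicate 2 or 3 (adjusted p = 0.0644 and 0.0595) and without parental replicate 3 (0.115). JMJD6, an oxygenase that modifies lysines of splicing factors, averaged 81.2 ± 2.07 CPM in GNAS R201C/+ cells and 84.2 ± 1.69 CPM in parental cells (edgeR adjusted p = 0.0660).

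The last targets were thinly counted. ANKRD37, an ankyrin repeat gene with a well-studied hypoxia response element, had 2.31, 3.003, 3.30 and 3.10 CPM in GNAS R201C/+ libraries, against 2.62, 2.74, 2.11 and 2.07 CPM in parental libraries. The groups overlapped, and the log2 change was 0.29 (edgeR adjusted p = 0.0323). The call ended without GNAS R201C/+ replicate 2, 3 or 4 (adjusted p = 0.0607, 0.127 and 0.0772), without parental replicate 3 or 4 (0.123 and 0.131) and with DESeq2 (0.0660). ANKRD37 shares 909 exonic bases with UFSP2 on the opposite strand, a gene with 869 to 1147 reads per library against 88 to 156 for ANKRD37, and reads of overlapping genes cannot be told apart unless the counting used strand, which no source used here states. MIR210HG, the host gene of the hypoxia-induced miR-210, had 18, 6, 15 and 20 reads in GNAS R201C/+ libraries, against 10, 6, 3 and 6 reads in parental libraries. It fell under the filter on low counts. With no such filter its fitted log2 change was 1.18 (edgeR adjusted p = 0.00565). The counts overlapped, and GNAS R201C/+ replicate 2 and parental replicates 2 and 4 each had 6 reads. Without the filter, edgeR adjusted p-values moved unevenly. That of DDIT4 was 4.43e-148, against 1.09e-09 with the filter. That of ANKRD37 was 0.0337, against 0.0323, and that of HIF1AN was 0.0449, against 0.0215. The adjusted p of MIR210HG comes from the fit without the filter and is not directly comparable with those reported for the other genes.

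In 8 pairs of related genes, chosen after their values were seen and so given no test, the ratio per kb of exon was formed within each library, which takes out the scaling of library sizes. It did not overlap between the groups in 7 pairs and overlapped in EGLN1 over EGLN3. No share over other gene pairs was computed, and 41.6% of single tested genes did not overlap. The ratio of P4HA1 to P4HA2 was 1.64 to 1.81 in GNAS R201C/+ libraries and 1.96 to 2.15 in parental libraries. PLOD1 over PLOD2 was 11.8 to 12.4 in GNAS R201C/+ libraries and 9.26 to 10.3 in parental libraries, and BNIP3 over BNIP3L was 0.474 to 0.557 in GNAS R201C/+ libraries and 0.566 to 0.639 in parental libraries. Among the pairs that did not overlap, BHLHE40 with BHLHE41, ARNT with ARNT2, HIF1A with EPAS1, VEGFA with VEGFB and PLOD1 with PLOD2 had members called in opposite directions.

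**Figure D4:**
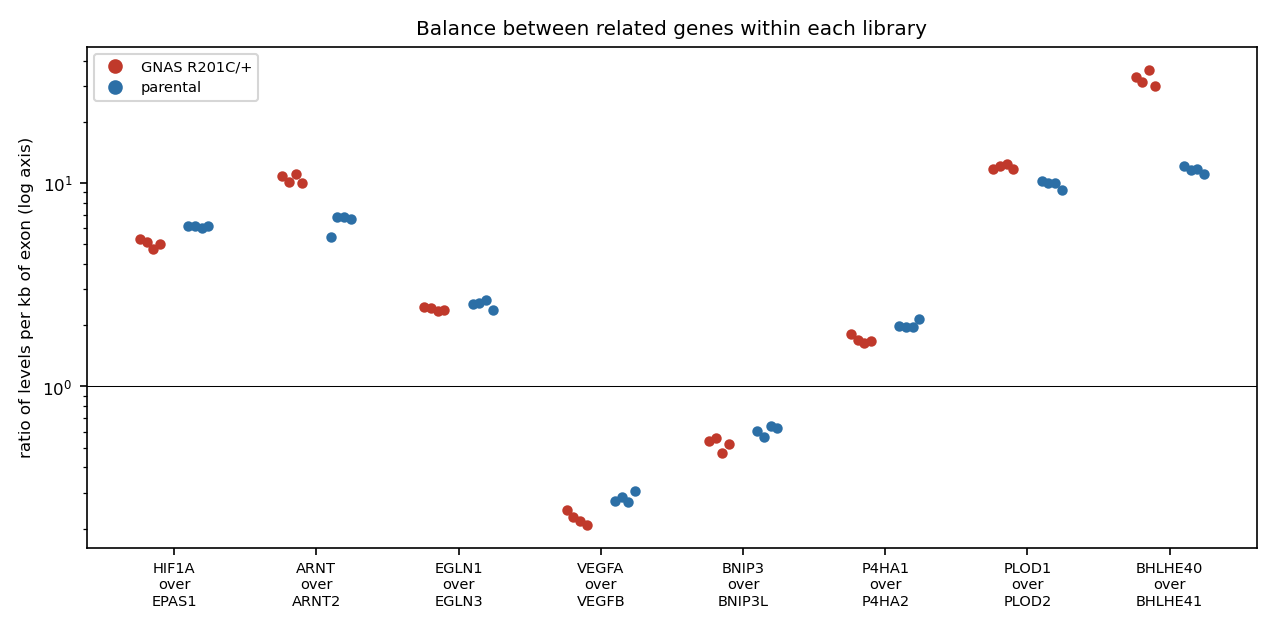
Ratio of the levels of related genes per kb of exon (log axis) in each library, with GNAS R201C/+ left of parental within each pair; each point is 1 library. The BHLHE40 to BHLHE41 ratio lies between 29.9 and 36.1 in GNAS R201C/+ libraries and between 11.1 and 12.1 in parental libraries, and EGLN1 over EGLN3 overlaps.

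Other genes of the pathway were read from 3 further lists. Over all tested genes 48.1% passed, 24.1% higher and 24.0% lower, and 60.5% passed among those with a mean of at least 10 CPM. Of 19 genes for HIF degradation and coactivation 17 were tested, and 3 rose, 4 fell and 10 did not pass, with a median log2 change of -0.004. In this list OS9, a lectin of the endoplasmic reticulum also reported to bind HIF1A, rose by 0.25 on the log2 scale (edgeR adjusted p = 2.65e-12). CUL2, the scaffold of the VHL ligase, fell by 0.13 (edgeR adjusted p = 7.86e-05), FBXW7, a substrate receptor of another ligase, by 0.13 (edgeR adjusted p = 0.000810), and SIAH1, a ligase that targets EGLN enzymes, by 0.12 (edgeR adjusted p = 0.00449). The values of SIAH1 and OS9 are uncertain, since SIAH1 shares 26.7% of its exonic length with LONP2 and OS9 shares 13.5% with an antisense gene, both on the opposite strand. NEDD8, the modifier that activates such ligases and that every cell uses, was listed at 0 in all 8 libraries. Without parental replicate 1 the count that rose was 5, and without parental replicate 2 or 3 it was 1.

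Of 35 other non-glycolytic hypoxia targets 29 were tested, and 8 rose, 12 fell and 9 did not pass, with a median log2 change of -0.04. Among the 8 that rose, ZNF395 shares 34.9% of its exonic length with FBXO16 on the same strand, so its level is uncertain. The apoptosis regulator gene PPP1R13L was at 26.7 ± 0.765 CPM in GNAS R201C/+ cells and 44.5 ± 1.59 CPM in parental cells (SD, n = 4 each), a log2 change of -0.74 (edgeR adjusted p = 9.68e-22). The growth factor gene PDGFB fell by 0.71 (edgeR adjusted p = 1.74e-14) and the taurine transporter gene SLC6A6 by 0.34 (edgeR adjusted p = 6.02e-16), while the EGF receptor ligand gene TGFA rose by 0.28 (edgeR adjusted p = 9.41e-13). Among these targets EDN1 fell the most, by 0.98 (edgeR adjusted p = 0.00212). It was at 0.272 ± 0.0569 CPM in GNAS R201C/+ cells and 0.528 ± 0.185 CPM in parental cells. IGFBP3 rose the most, by 0.71 (edgeR adjusted p = 0.000177). It was at 1.49 ± 0.150 CPM in GNAS R201C/+ cells and 0.911 ± 0.199 CPM in parental cells. EDN1 and IGFBP3 were named after their values were seen. FLT1, a VEGF receptor, was listed at 0. CA9, a carbonic anhydrase and one of the most used hypoxia markers, had 5, 0, 0 and 5 reads in GNAS R201C/+ libraries, against 0, 1, 1 and 2 reads in parental libraries, and was named after its values were seen. Of 21 glycolytic targets, all tested, 13 rose, SLC2A1 among them, 5 fell and 3 did not pass, with a median log2 change of 0.07. The share called over all tested genes was 48.1%. Among the 3 that did not pass, ALDOA was at 7.43 ± 0.542 CPM in GNAS R201C/+ cells and 7.65 ± 0.232 CPM in parental cells. ALDOA shares 42.3% of its exonic length with another gene on the same strand, so its level is uncertain. Beside SLC2A1, the phosphofructokinase gene PFKL rose by 0.24 (edgeR adjusted p = 3.72e-12), the pyruvate kinase gene PKM rose by 0.23 (edgeR adjusted p = 5.27e-12), and the hexokinase gene HK1 fell by 0.32 (edgeR adjusted p = 2.69e-15). The largest fall of the list was that of another hexokinase gene, HK2, by 0.57 (edgeR adjusted p = 7.54e-10). The largest rise after SLC2A1 was that of ALDOC, by 0.51 (edgeR adjusted p = 0.000116). HK2 and ALDOC were named after their values were seen. The HIF regulators and non-glycolytic targets had a median log2 change of 0.08, and all tested genes 0.0019.

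**Figure D5:**
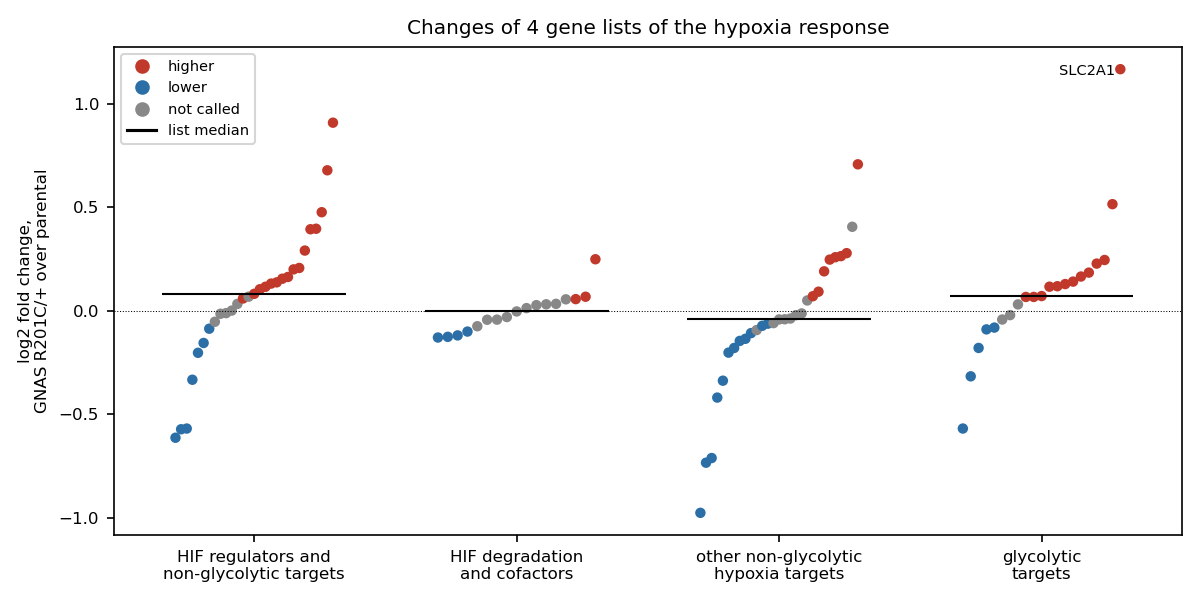
Log2 fold change, GNAS R201C/+ over parental, of the tested genes of 4 lists, sorted within each list; each point is 1 gene, colour gives the call and the line is the list median. Each list holds genes on both sides of 0, with medians of 0.08, -0.004, -0.04 and 0.07 from left to right, and SLC2A1 stands above the other glycolytic targets.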

How the data were processed

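The authors deposited 1 table of unnormalised gene counts, with 60609 Ensembl identifiers and a column for each of 8 libraries. Per the submitters' processing notes, bcl2fastq, Trimmomatic, STAR, featureCounts and DESeq2 were used with GRCh38.p12. No source used here gives the annotation release, the strand setting or the handling of shared reads, so reads of overlapping genes may be mixed. Overlaps in GENCODE 29 are given for EGLN2, ANKRD37, DDIT4, HIF1AN, LOXL2, SIAH1, OS9, ZNF395 and ALDOA. Others are not listed. Per the labels' protocols, the library kit was directional.

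Identifiers were matched to GENCODE 29 (58457 matched). Genes were kept by filterByExpr (minimum count 10, minimum total 15), which left 15751 of 32806 genes with a read. The test was edgeR 4.0.16 in R 4.3.3, with TMM scaling, a quasi-likelihood F test with group as its only term and Benjamini-Hochberg adjustment over all tested genes. Standard errors are the log2 change over the square root of F. Intervals of 95% come from limma-voom (limma 3.58.1), and DESeq2 1.42.0 was an alternative. On simulated data the edgeR script was tested before use.

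The 33 genes, the lists and the naming rule (all members, SLC2A1, GNAS, up to 4 called genes with the smallest adjusted p and any gene with no read from each further list) were chosen with earlier results of these data known. The comparison with genes of at least 10 CPM was added after their values were seen. No pair of replicates was close enough to be a library deposited again.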

Additional observations from a re-analysis of the deposited data

Results flagged for a closer look

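In groups of 4 libraries, 60 groups of values (29 HIF pathway genes and SLC2A1, each in both genotypes) were searched for a library far from the other 3 by Dixon's criterion, and 2 were found, where chance gives about 1 in 20. EGLN1 in GNAS R201C/+ replicate 4 was at 17.94 CPM with the others at 17.45 to 17.49 CPM, and its gap was 0.916 of the range of the group. Without that library EGLN1 still did not pass (edgeR adjusted p = 0.723). BNIP3L in parental replicate 3 was at 35.6 CPM with the others at 39.2 to 39.8 CPM, a gap of 0.849 of the range. Without that library BNIP3L still rose, by 0.17 on the log2 scale (edgeR adjusted p = 0.000148).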

How the results depend on the processing

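Of the 23 called HIF pathway genes, 19 kept their direction and their call under the 16 alternatives other than the test against a 1.5-fold change; the exceptions were ANKRD37, HIF1AN, KDM3A and PLOD2. JMJD6, not called, passed as lower with library totals only (adjusted p = 0.0362), without GNAS R201C/+ replicate 2 (0.0252) and without parental replicate 2 (0.0452). With each library left out in turn, between 20 and 25 members were called, 14 to 17 higher and 6 to 8 lower; among the degradation and cofactor genes 4 to 10 were called, 1 to 5 of them higher. SLC2A1 stayed between 1.15 and 1.18 on the log2 scale.

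Against a 1.5-fold change, 256 of all tested genes passed, 138 higher and 118 lower; of the members 1 passed, higher, and 0 lower; of the degradation and cofactor genes 0 passed in either direction; of the other hypoxia targets 1 passed, lower, and 0 higher; and of the glycolytic targets 1 passed, higher, and 0 lower. Same-numbered libraries did not deviate together (correlations -0.05 to 0.05), so the numbers were not taken as pairs. With the replicate number as a block, 7413 genes were called over all, 23 members were called, 16 higher and 7 lower, and 1 degradation or cofactor gene was higher. With DESeq2, 6633 genes and 22 members were called. The median log2 change of all genes was 0.0019 in the reported fit. It was 0.002 with DESeq2 size factors, 0.0019 with upper quartile factors and -0.0046 with library totals only. For MIR210HG, ANKRD37 and BHLHE41 the low counts limit the precision. EGLN2 was at 4.42 ± 0.724 CPM in GNAS R201C/+ cells and 5.575 ± 0.675 CPM in parental cells (SD, n = 4 each), and the source of that spread was not tested. The cause of the lost calls was not tested.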
